A study of Homo sapiens with 12 samples.

Results

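Claudins are the membrane proteins that build the strands of the tight junction, the seal between neighbouring epithelial cells. Sealing claudins narrow the path between cells, whereas pore-forming claudins line small channels through which ions and water pass. In the gut the 2 kinds are made together, and the mix of claudins in the strands helps to set how leaky the epithelium is. The genes described here are the 7 rows of the deposited expression table with the symbols CLDN1, CLDN3 and CLDN4 (sealing), CLDN2 and CLDN15 (pore-forming), and CLDN7 and CLDN12, whose role depends on the tissue or is less settled. They are 7 of 26125 rows and 7 of the 24 claudin rows, and all 7 passed the filter on low values. These 7 held 97.1% to 98.6% of all claudin signal in a library. Each role is textbook background and was not measured here.

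The cells were Caco-2, a line from a human colon tumour that grows into a polarised monolayer with features of small intestinal enterocytes. All 12 libraries came from cells kept for 21 days in transwell chambers, and exposure took place in HBSS buffer with HEPES, with the agents added on the apical side. The control group received no agent, the CW14 group received the bacterium Bacillus subtilis CW14, the OTA group received ochratoxin A, a food mould toxin, at 15 µmol/L, and the combined group received both. Each group had 3 libraries. The time of exposure is not stated in the labels. Whether replicates came from separate cultures is not stated. P-values therefore measure the spread between these libraries, which may be technical. Caco-2 is 1 tumour line, and an RNA level says nothing of the protein or of its place in the junction. The series title asks whether CW14 lessens the barrier disruption and toxicity of OTA.

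Levels are FPKM, the authors' fragment counts per length of transcript and per library size, so levels of different claudins can be set side by side, but only roughly. Deviations of some libraries varied with GC content, and closely related claudins can share reads. Of 14 epithelial markers, 12 had a mean of at least 1 FPKM, while CDX1 and SI did not. The 14 summed to 10144.5 to 10869.9 FPKM in controls and 8687.8 to 9295.4 with CW14. With OTA they summed to 10571.6 to 11620.5 FPKM, and in the combined group to 10838.0 to 27579.6. APOA1 had the largest values of the list, with a median of 4606 FPKM and a highest value of 19185. The defining leukocyte marker PTPRC, the fibroblast markers COL1A2 and DCN and the endothelial marker KDR were listed at 0 in every library. Other markers of these types were not: COL1A1 and LUM (fibroblast) and PECAM1 (endothelium) had medians of 1.78, 3.53 and 1.37 FPKM. The 6 fibroblast markers summed to 6.85 to 8.27 FPKM in controls, 5.05 to 7.85 with CW14, 5.22 to 6.68 with OTA and 5.44 to 7.82 in the combined group. The 4 endothelial markers summed to 0.991 to 1.74, 0.674 to 1.62, 1.29 to 1.97 and 1.55 to 1.77 FPKM in the same order. The 6 leukocyte markers summed to 118 to 152 FPKM in controls, 98.8 to 124 with CW14, 165 to 203 with OTA and 106 to 136 in the combined group, nearly all of it from CD68, LYZ and CD14. Their part in the results was not tested. Combined replicate 3 stood apart: its residual SD over the tested genes was 0.59 on the log2 scale against 0.31 to 0.42 in the other 11 libraries. Its relative depth was the lowest, at 0.471 of that of control replicate 1, and its deviations rose with the GC content of the transcript (Spearman rho 0.508 across genes, against -0.314 to 0.248 elsewhere). Calls of the 7 claudins that change without this library are given both ways. So are some of the counts and correlations.

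Promoter sequences are printed for CLDN4 and CLDN3, the claudins that fell with OTA, and for CLDN1 and CLDN2, a sealing and a pore-forming claudin for which no call was made in that comparison. Each is the 250 bases before the start of the gene in RefSeq (GRCh38.p14, 5′ to 3′ on the strand of the gene). This build differs from the hg19 build of the expression table. Capitals mark matches on either strand to GGGCGG, the GC box bound by Sp and KLF factors, or to TGANTCA. With N any base, TGANTCA is a loose form of the site of the FOS and JUN factor AP-1.
CLDN4 promoter, chr7:73830746-73830995, plus strand: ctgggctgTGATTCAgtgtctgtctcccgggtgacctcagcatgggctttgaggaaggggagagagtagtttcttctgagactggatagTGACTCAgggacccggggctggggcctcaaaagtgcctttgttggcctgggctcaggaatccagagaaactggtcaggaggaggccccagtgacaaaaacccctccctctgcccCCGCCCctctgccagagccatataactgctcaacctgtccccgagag
CLDN3 promoter, chr7:73770271-73770520, minus strand: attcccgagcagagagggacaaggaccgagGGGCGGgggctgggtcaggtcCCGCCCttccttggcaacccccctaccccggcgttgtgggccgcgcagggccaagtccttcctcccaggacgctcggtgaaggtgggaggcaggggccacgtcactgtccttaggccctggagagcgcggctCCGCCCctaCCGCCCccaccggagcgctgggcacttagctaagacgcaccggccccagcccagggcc
CLDN1 promoter, chr3:190322447-190322696, minus strand: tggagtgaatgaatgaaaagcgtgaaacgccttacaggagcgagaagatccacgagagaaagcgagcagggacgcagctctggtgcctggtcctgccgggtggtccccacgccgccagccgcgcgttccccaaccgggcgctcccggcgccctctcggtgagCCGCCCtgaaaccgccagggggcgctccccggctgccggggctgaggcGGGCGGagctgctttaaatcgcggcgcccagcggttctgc
CLDN2 promoter, chrX:106899914-106900163, plus strand: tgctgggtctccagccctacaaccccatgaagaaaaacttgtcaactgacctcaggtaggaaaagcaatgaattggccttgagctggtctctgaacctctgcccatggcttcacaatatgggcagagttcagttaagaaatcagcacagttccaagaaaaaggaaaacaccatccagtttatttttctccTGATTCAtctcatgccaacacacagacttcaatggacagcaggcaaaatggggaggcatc

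The CLDN4 window held 2 AP-1 matches, 242 and 161 bases before the start, and 1 GC box. In the CLDN3 window there were 4 GC boxes and no AP-1 match. That of CLDN1 held 2 GC boxes, and the printed CLDN2 window held 1 AP-1 match, 60 bases before the start. A second CLDN2 window (chrX:106918110-106918359), not printed, held no match to any motif sought here. The CLDN15 window, not printed, held 1 match to each. Among 35116 windows of the same length in RefSeq, 42.6% held a GC box and 6.57% an AP-1 match. The core of the EGR site (GTGGGCG, in 8.53% of all windows) was also sought on both strands. So were the TATA box (TATAAA, in 10.7%) and the CDX site (TTTATNG, in 8.93%), and none of these lay in a window of the 7 claudins. CAGGTG, the E-box bound by Snail and other factors (17.5% of all windows), had 4 matches in 1 CLDN7 window. The GC box and the EGR core can overlap. CLDN3 and CLDN4 are neighbours, with 60725 bases between them in GRCh38.p14, whereas the other 5 genes lie elsewhere. A match is a run of letters and was not tested for binding.

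In control cells CLDN4 was by far the most abundant claudin. Its control libraries read 1839, 1726 and 1745 FPKM, which placed it at rank 32 of the 12928 genes tested. CLDN1, CLDN3 and CLDN7 followed at 139 ± 13.3, 126 ± 10.7 and 121 ± 0.813 FPKM (SD, n = 3). Every CLDN1 control lay above every CLDN7 control, while CLDN3 overlapped both, so its place among the 3 is not settled. CLDN12 followed at 21.9 ± 2.63 FPKM, above every control library of CLDN2 (13.1 ± 3.27) and CLDN15 (8.72 ± 2.07). The pore-forming pair was thus the lowest of the 7, and CLDN2 lay above CLDN15 in every control library. CLDN4 alone made up 80.5% ± 0.29 of the summed FPKM of the 7 claudins in controls.

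**Figure D1:**
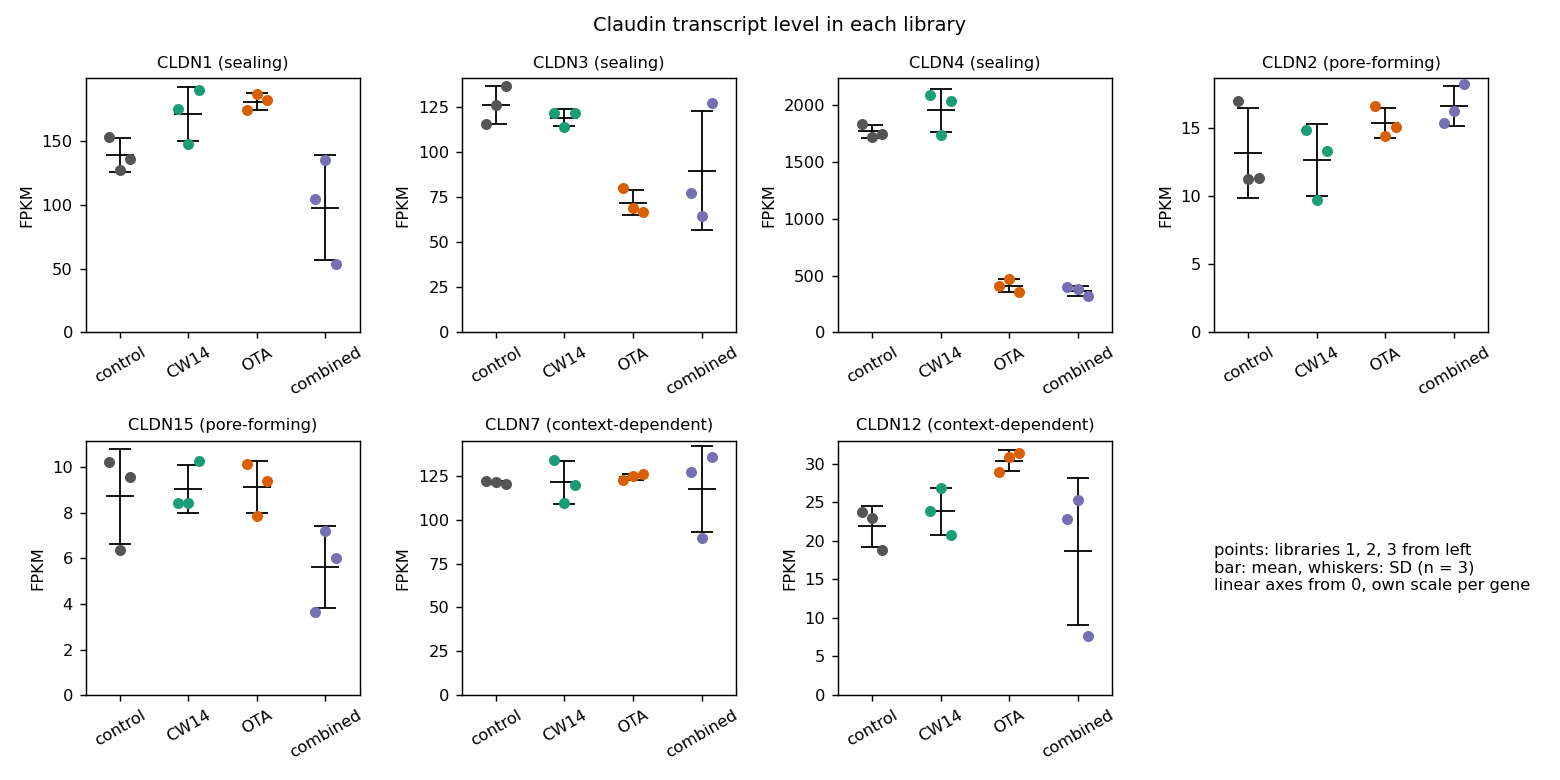
FPKM of each of the 7 claudins (vertical axes, linear from 0, own scale for each gene) in the 12 libraries, by group; points are libraries, bars means and whiskers SD (n = 3). CLDN4 was between 353 and 474 FPKM with OTA and between 316 and 398 in the combined group, below every control and CW14 library; combined replicate 3 was the lowest library for CLDN1 and CLDN12.

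With OTA the RNA of 2 of the 3 sealing claudins, CLDN4 and CLDN3, fell, while no call was made for the other 5 claudins. The 2 calls among 7, both lower, stand against 12.9% of all tested genes called lower and 4.82% called higher (17.7% in all). A call is an adjusted p under 0.05 in limma, a linear model on log2(FPKM + 1) with Benjamini-Hochberg adjustment over the whole set of tested genes. The median difference of the 7 was 0.08 on the log2 scale, beside 0.03 over all genes tested. In bulk RNA, fewer cells of a type and less RNA per cell cannot be told apart.

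CLDN4, a sealing claudin that also serves as a receptor for Clostridium perfringens enterotoxin, read 408, 474 and 353 FPKM with OTA against 1839, 1726 and 1745 in controls. The groups were far apart, and the highest OTA library lay well under the lowest control. Group means were 412 ± 60.7 and 1770.1 ± 60.7 FPKM (SD, n = 3), which is 4.30-fold lower with OTA. The log2 difference was -2.11 (SE 0.14, 95% interval -2.43 to -1.80, limma adjusted p = 2.35e-06). This call held under every other setting tried, with leave-one-out values of -2.22 to -2.01.

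CLDN3, a close relative and the other enterotoxin receptor, read 115, 126 and 137 FPKM in controls and 79.7, 69.0 and 66.8 with OTA. All 3 OTA libraries lay below all 3 controls, and the fall was smaller than that of CLDN4. Its log2 difference was -0.80 (SE 0.20, 95% interval -1.24 to -0.36, limma adjusted p = 0.0169). Without control replicate 2, control replicate 3, OTA replicate 2 or OTA replicate 3 the call was lost, with adjusted p up to 0.0708. The ratio of CLDN4 to CLDN3 was 12.8 to 16.0 in control libraries and 5.12 to 6.87 with OTA, so CLDN4 lost more of its level than its neighbour. CLDN3 and CLDN4 share 1 deposited locus (hg19 chromosome 7, 72476601 to 74336166, about 1860 kb) with 33 rows in all. Of its 23 tested rows, 5 were called lower with OTA, CLDN3 and CLDN4 included, and 2 higher (12.9% and 4.82% of all tested genes). The median log2 difference of these 23 rows was 0.007.

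CLDN1, the sealing claudin whose loss in mice breaks the water barrier of the skin, went the other way in its values. It read 153, 127 and 136 FPKM in controls and 174, 187 and 182 with OTA (hg19 chromosome 3, 190023488 to 190040235). Every OTA library lay above every control, but the log2 difference of 0.38 (SE 0.26, 95% interval -0.18 to 0.94) did not pass (limma adjusted p = 0.343). The spread in that model is shared with the combined group. Without combined replicate 3 the same difference passed, with adjusted p = 0.0272, and with only the OTA and control libraries fitted it was 0.00994. Of the 3 sealing claudins, then, 2 were called lower with OTA and CLDN1 was not called in the fit to all libraries.

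The pore-forming claudins showed no call with OTA. CLDN2, which forms a channel for sodium and water (hg19 chromosome X, 106143291 to 106174091), read 16.9, 11.2 and 11.3 FPKM in controls and 16.6, 14.4 and 15.0 with OTA. The groups overlapped, through control replicate 1. The log2 difference was 0.23 (95% interval -0.17 to 0.64, limma adjusted p = 0.437). CLDN15, a sodium channel of the small intestine (hg19 chromosome 7, 100875371 to 100882101), read 10.2, 6.36 and 9.57 FPKM in controls and 10.1, 7.88 and 9.41 with OTA. The 2 sets of libraries overlapped, with a log2 difference of 0.08 (95% interval -0.41 to 0.57, limma adjusted p = 0.847).

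CLDN7, a basolateral claudin that binds EPCAM (hg19 chromosome 17, 7155370 to 7166512), varied least of the 7 within the control and OTA groups. It read 122, 121 and 120 FPKM in controls and 123, 125 and 126 with OTA. All 3 OTA libraries were the higher ones, by a small margin: the log2 difference was 0.04 (95% interval -0.29 to 0.37, limma adjusted p = 0.887). CLDN12, which lacks the usual PDZ-binding tail of claudins (hg19 chromosome 7, 90032646 to 90045268), read 23.7, 23.0 and 18.8 FPKM in controls and 28.9, 30.9 and 31.4 with OTA. Its groups did not overlap either, and the difference of 0.46 (SE 0.32, 95% interval -0.24 to 1.17) did not pass (limma adjusted p = 0.363). Without combined replicate 3, whose CLDN12 value was far below its group, the difference passed with adjusted p = 0.0101. With OTA and control libraries alone it was 0.0124. Over the 7 claudins, OTA and control libraries failed to overlap in 5, 2 lower and 3 higher, beside 25.7% and 24.4% of all tested genes.

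**Figure D2:**
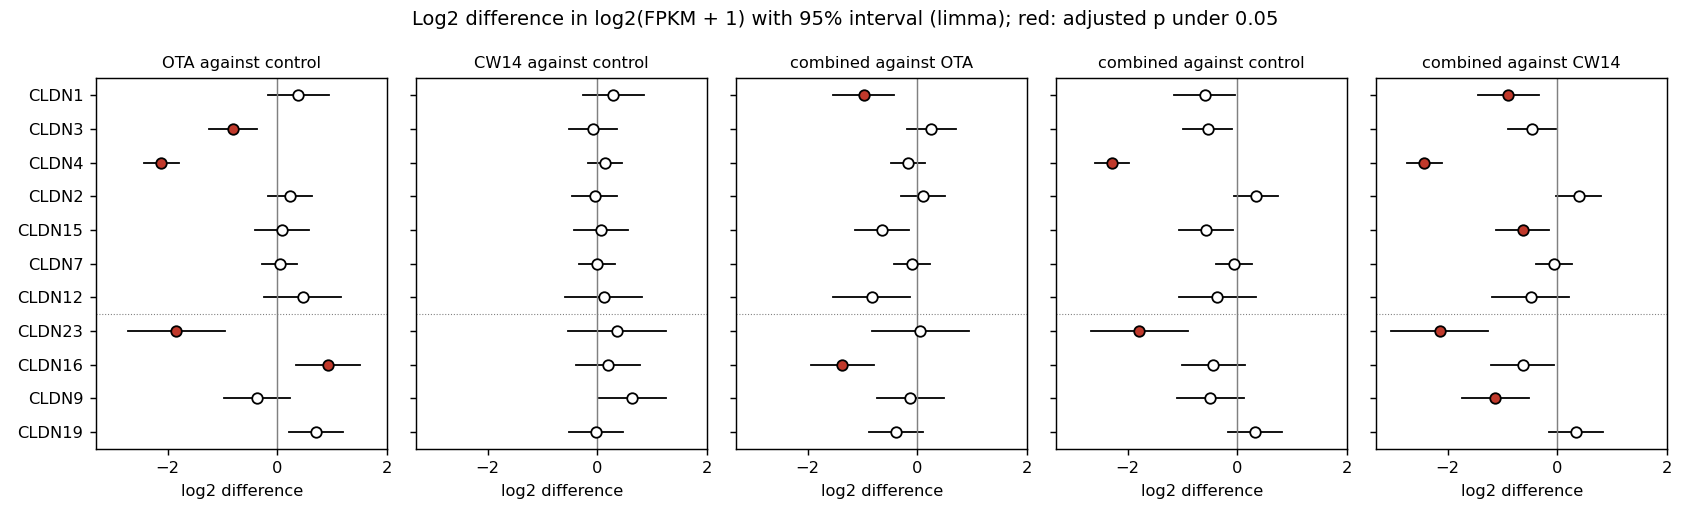
Log2 difference in log2(FPKM + 1) (horizontal axes) of the 7 claudins and, below the dotted line, the 4 other tested claudins, in 5 comparisons; points are limma estimates, lines 95% intervals, red points adjusted p under 0.05. CLDN4 lies at -2.11 in OTA against control and at -0.17 in the combined group against OTA.

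CW14 alone left no claudin called. All 7 differences from control lay between -0.08 (CLDN3) and 0.29 (CLDN1) on the log2 scale, none with an unadjusted p under 0.05. Every claudin's CW14 and control libraries overlapped. For both measures the share over all tested genes is not given here. Over all genes 0.364% were called in this comparison, 0.147% lower and 0.217% higher. CLDN4 read 2091, 1740 and 2038 FPKM with CW14, a log2 difference of 0.14 (95% interval -0.17 to 0.46, limma adjusted p = 0.957). For CLDN1 the libraries read 175, 148 and 190 FPKM, with a 95% interval of -0.26 to 0.85. CLDN3 read 122, 114 and 122 FPKM. These sealing claudins therefore lay near control, and the intervals leave room for a rise of CLDN1 of the size seen in its OTA values. The pore-forming claudins read 14.9, 9.68 and 13.3 FPKM (CLDN2) and 8.44, 8.44 and 10.3 FPKM (CLDN15). CLDN7 read 134, 110 and 120 FPKM, and CLDN12 read 23.8, 26.9 and 20.7 FPKM.

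With OTA and CW14 together, CLDN4 stayed at the OTA level. It read 398, 378 and 316 FPKM, which overlapped the 408, 474 and 353 FPKM of OTA alone. The log2 difference from OTA was -0.17 (SE 0.14, 95% interval -0.49 to 0.14, limma adjusted p = 0.422), so the interval reaches at most 0.14 above OTA. Against control the difference was -2.29 (limma adjusted p = 7.25e-07), with means of 364 ± 42.6 and 1770.1 ± 60.7 FPKM (SD, n = 3). Relative to CW14 alone it was -2.43 (limma adjusted p = 4.96e-07), a 5.37-fold lower mean. Both calls held under every other setting tried. The difference of differences, that is the effect of OTA with CW14 minus that without, was -0.31 (95% interval -0.76 to 0.13, limma adjusted p = 0.365).

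CLDN3 in the combined group read 77.0, 64.5 and 126.8 FPKM. Replicates 1 and 2 lay within or below the OTA range of 66.8 to 79.7, and replicate 3 lay within the control range. The log2 difference from OTA was 0.26 (95% interval -0.18 to 0.69, limma adjusted p = 0.394), and it was -0.02 without combined replicate 3. Against control the difference of -0.54 did not pass (limma adjusted p = 0.0611). Without that library it was -0.82 and passed, with adjusted p = 0.000255. Against CW14 alone the values were -0.47 (limma adjusted p = 0.0947) and, without that library, -0.74 (adjusted p = 0.000494). CLDN3 has the most GC-rich transcript of the 7, at 69.2%.

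CLDN1 was the 1 claudin of 7 called between the combined group and OTA, and it was lower (8.22% of all tested genes were called lower and 7.79% higher). The combined libraries read 104, 135 and 53.6 FPKM, all under the OTA range of 174 to 187. Its log2 difference was -0.98 (SE 0.26, 95% interval -1.54 to -0.42, limma adjusted p = 0.0258). Without combined replicate 3 it was -0.60 and still passed (adjusted p = 0.00964). The call was lost after quantile normalization (adjusted p = 0.102), with only the 2 groups fitted (0.140) and without any 1 of the OTA libraries (up to 0.0835). That 2-group fit called 70 of all 12928 genes, beside 2070 in the main fit. Against CW14 alone CLDN1 was called lower, at -0.89 on the log2 scale (limma adjusted p = 0.0206), or -0.52 (adjusted p = 0.0116) without combined replicate 3. That call was lost after quantile normalization (0.0641), with the 2 groups alone (0.115) and without CW14 replicate 1 or 3 (up to 0.0674). From control it differed by -0.60, which did not pass (limma adjusted p = 0.0994), and by -0.22 without combined replicate 3. Combined replicate 2, at 135 FPKM, lay within the control range of 127 to 153.

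For CLDN1 the difference of differences was -1.28 (SE 0.36, 95% interval -2.07 to -0.49, limma adjusted p = 0.0677). No claudin of the 7 passed in this comparison, where 3.33% of all tested genes did (1.49% lower and 1.85% higher). Of the 7, 2 (CLDN1 and CLDN15) had an unadjusted p under 0.05, for which the share over all genes is not given here. Without combined replicate 3 the CLDN1 value was -0.90 and passed (adjusted p = 0.0117), and without combined replicate 2 it passed at -1.56 (adjusted p = 0.0176). Group means of CLDN1 were 139, 171, 181 and 97.6 FPKM for control, CW14, OTA and the combined group.

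CLDN15, the other pore-forming claudin, had its lowest group mean in the combined group. The libraries read 3.65, 7.20 and 6.01 FPKM, all below the 8.44 to 10.3 FPKM of CW14 and the 7.88 to 10.1 FPKM of OTA, while 1 control library (6.36) overlapped. It was called lower than with CW14 alone, at -0.64 (SE 0.22, 95% interval -1.13 to -0.15, limma adjusted p = 0.0480). That call sits at the threshold and was lost in 14 of the other settings, among them median centring (adjusted p = 0.0604), the fit without a filter, and each fit without 1 of the OTA or CW14 libraries. The differences from OTA (-0.65, limma adjusted p = 0.0685) and from control (-0.57, limma adjusted p = 0.0764) did not pass. With the GC trend removed they were -0.91 and -0.84 and passed (adjusted p = 0.0260 and 0.0205).

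CLDN2 did not move with CLDN15. Its combined libraries read 15.3, 16.2 and 18.2 FPKM, the highest group mean of the 4 at 16.6 ± 1.45 (SD, n = 3). All 3 lay above the 9.68 to 14.9 FPKM of CW14 alone, but the log2 difference of 0.39 (95% interval -0.02 to 0.79) did not pass (limma adjusted p = 0.129). Against OTA it was 0.10 and against control 0.34, neither called (limma adjusted p = 0.728 and 0.191). Within a library, the ratio of CLDN2 to CLDN15 was 1.18 to 1.76 in controls, 1.15 to 1.76 with CW14, 1.60 to 1.83 with OTA and 2.26 to 4.20 in the combined group. The combined libraries did not overlap the rest in this ratio, which is a description with no test.

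CLDN7 and CLDN12 had no call in any comparison with the combined group. CLDN7 read 127, 89.9 and 136 FPKM there, a wider spread than in any other group, with a log2 difference from OTA of -0.10 (95% interval -0.43 to 0.22, limma adjusted p = 0.655). CLDN12 read 22.9, 25.3 and 7.71 FPKM. Its first 2 libraries were close to control and under the OTA range of 28.9 to 31.4, while the third was far below. The difference from OTA was -0.83 (limma adjusted p = 0.0964), and -0.33 without combined replicate 3. Against control it was -0.37 with that library and 0.14 without it, so the direction rests on 1 library. Counting the 7 claudins, 1 was called lower and none higher in the combined group against control (16.8% and 12.0% of all tested genes). Against CW14 alone it was 3 lower and none higher (17.5% and 14.8%). Without combined replicate 3 the calls were 4 in OTA against control (2 of them higher), 1 in the combined group against OTA, 2 against control, 4 against CW14 and 1 in the difference of differences. That fit called more genes overall: 33.9%, 21.2%, 32.7%, 33.9% and 12.3% of its 12890 tested genes in these 5 comparisons.

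Combined replicate 3 deviated from its group along the GC content of the claudin transcripts. CLDN12 and CLDN1, with 38.1% and 41.5% GC, read 0.320 and 0.449 of the mean of combined replicates 1 and 2. CLDN3, with 69.2% GC, read 1.79 times that mean. CLDN2, CLDN15 and CLDN7, with 52.6%, 60.2% and 59.6%, lay at 1.15, 1.11 and 1.25, and CLDN4, with 57.5%, at 0.815. The median of all tested genes was 49.2%. Of the other tested claudins, CLDN23 and CLDN19 went against this order, with 60.7% and 60.1% GC and ratios of 0.226 and 0.510.

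**Figure D3:**
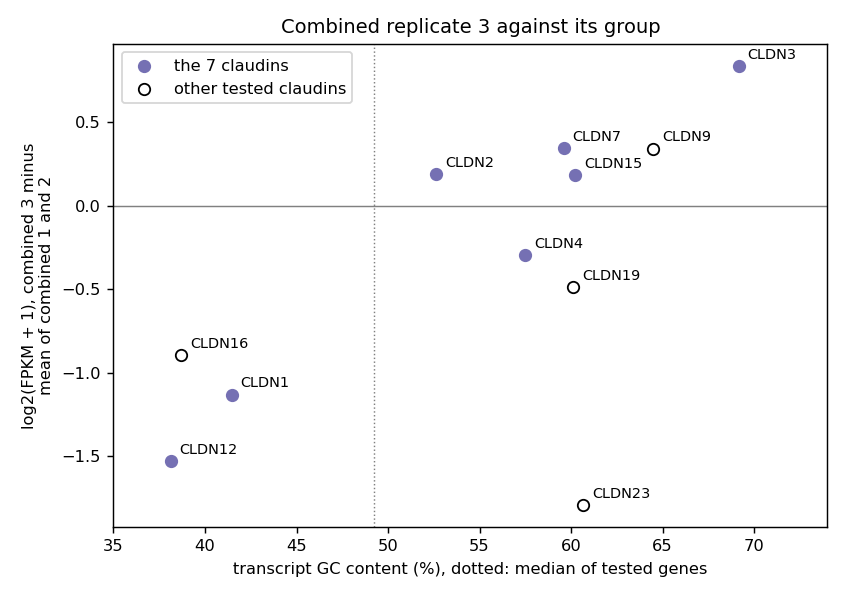
Difference on the log2(FPKM + 1) scale between combined replicate 3 and the mean of combined replicates 1 and 2 (vertical axis) against transcript GC content in percent (horizontal axis); filled points are the 7 claudins, open points the 4 other tested claudins, the dotted line the median GC of tested genes. CLDN12 and CLDN1 lie at -1.53 and -1.13 and CLDN3 at 0.84; CLDN23 and CLDN19 lie at -1.79 and -0.49 despite their high GC content.

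Claudin RNA had another make-up in the groups that received OTA. Summed over the 7, the level was 2200 ± 72.5 FPKM in controls, 2413 ± 224 with CW14, 844 ± 62.3 with OTA and 710 ± 42.2 in the combined group (SD, n = 3). Without CLDN4 the other 6 summed to 430 ± 13.5, 457 ± 34.9, 432 ± 1.67 and 346 ± 6.72 FPKM. The OTA libraries (431 to 434 FPKM) thus lay within the control range (415 to 441 FPKM) for this sum, and in the combined group all 3 libraries (338 to 351 FPKM) lay below every library of the other groups. The small SD of the sum in the combined group hides opposite deviations of combined replicate 3. In that group CLDN1 read 104, 135 and 53.6 FPKM, while CLDN3 read 77.0, 64.5 and 126.8. The share of CLDN4 was 80.5% ± 0.29, 81.1% ± 0.36, 48.6% ± 3.58 and 51.2% ± 3.13 in the 4 groups. CLDN1 and CLDN7 took most of the rest with OTA, at 21.5% ± 1.48 and 14.8% ± 1.18, against 6.30% ± 0.396 and 5.52% ± 0.163 in controls. Shares sum to a whole, so a lower share of 1 claudin raises the others.

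The ratio of sealing (CLDN1, CLDN3 and CLDN4) to pore-forming (CLDN2 and CLDN15) FPKM was 77.6 to 112 in control libraries, 99.7 to 110 with CW14, 24.6 to 32.7 with OTA and 20.5 to 30.5 in the combined group. Control and CW14 libraries overlapped, as did OTA and combined libraries, and the 2 pairs of groups were well apart. Leaving CLDN4 out of the sealing sum gave 9.89 to 14.4, 12.7 to 14.4, 9.50 to 11.5 and 7.46 to 9.55. Control and OTA libraries overlapped once CLDN4 was left out. Both ratios describe RNA within a library and were given no test.

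**Figure D4:**
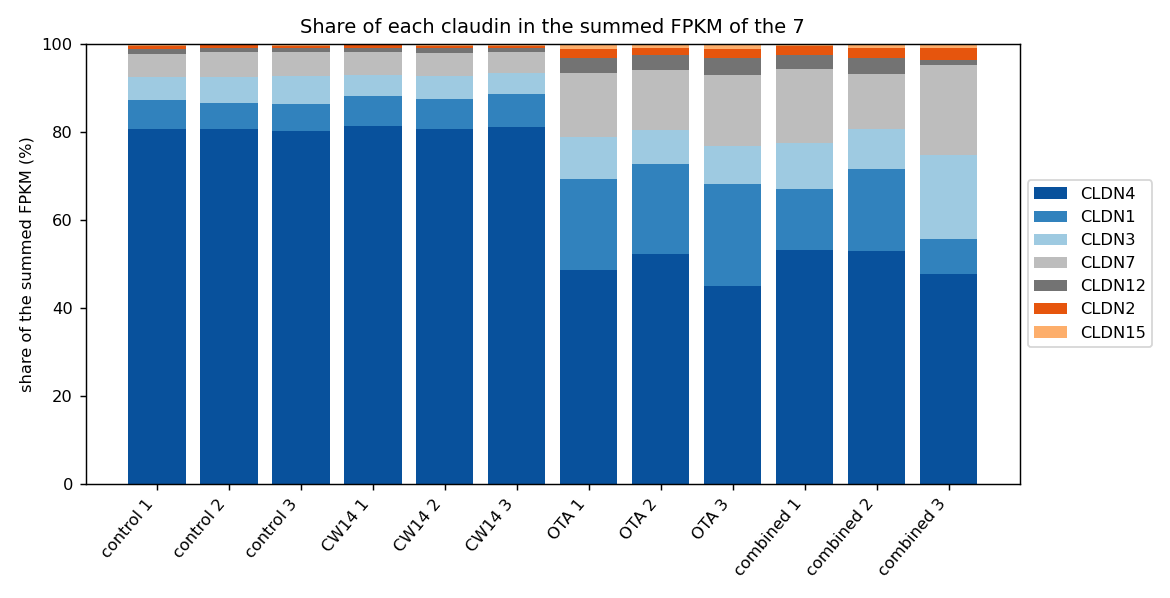
Share of each claudin in the summed FPKM of the 7 (vertical axis, percent) in each of the 12 libraries (horizontal axis); colours are claudins, blue sealing, orange pore-forming and grey the other 2. CLDN4 makes up 80.1% to 81.4% of control and CW14 libraries and 45.0% to 53.2% of OTA and combined libraries.

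Of the 17 other claudin rows, 4 passed the filter on low values. The remaining 13 had means of at most 0.607 FPKM, and 1 of them, CLDN8, was listed at 0 in every library. CLDN23, like CLDN4, fell with OTA. It read 28.6, 27.0 and 26.8 FPKM in controls, 43.3, 23.9 and 42.9 with CW14, 5.99, 6.27 and 8.87 with OTA and 12.5, 10.5 and 2.60 in the combined group. OTA and combined libraries all lay below control and CW14 libraries, with log2 differences from control of -1.84 and -1.79 (limma adjusted p = 0.00844 and 0.00725). With only the combined and control libraries fitted the second was lost (adjusted p = 0.0537), and without combined replicate 3 it was -1.19 (adjusted p = 0.00265). CLDN16, which with CLDN19 handles magnesium and calcium in the kidney, had its highest levels with OTA alone. It read 3.28, 2.31 and 2.56 FPKM in controls, 4.80, 5.17 and 8.66 with OTA and 2.26, 2.44 and 0.803 in the combined group, where the difference from control of -0.44 was not called (limma adjusted p = 0.228).

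CLDN16 was called higher with OTA (0.93, limma adjusted p = 0.0311) and lower in the combined group than with OTA (-1.37, limma adjusted p = 0.00866). The first call was lost with a pseudocount of 0.1 (adjusted p = 0.0567), without a filter (0.0611), with a replicate block (0.0543) and without control replicate 2 or 3 or OTA replicate 2 or 3 (up to 0.142), and the second with only those 2 groups fitted (0.0854). CLDN19 read 0.643, 0.556 and 1.12 FPKM in controls and 1.64, 2.13 and 1.82 with OTA. Those groups did not overlap, at a log2 difference of 0.70 that just missed the threshold (limma adjusted p = 0.0506) and passed without combined replicate 3 (0.0205). CLDN9 was called lower in the combined group than with CW14 alone (-1.13, limma adjusted p = 0.0103), at means of 0.849 and 3.03 FPKM. These 2 are low-level genes, whose changes the log2(FPKM + 1) scale understates.

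Across the 12 libraries, the genes whose log2(FPKM + 1) followed each claudin most closely were sought among the 9060 genes whose mean reached 5 FPKM. For CLDN4 they were TRIB1, a pseudokinase (r = 0.997), the transcription factor ETS2 (r = 0.995) and PPP1R15A, a stress-induced phosphatase subunit (r = 0.994). TRIB1 read 163 to 192 FPKM in controls and 10.0 to 16.3 with OTA, so it parts the libraries in the same way as CLDN4. Nearest to CLDN3 were H1FX (r = 0.971), the nectin PVRL2 (r = 0.971) and the desmosome and adherens protein JUP (r = 0.966). For CLDN1 they were the desmosome protein DSP (r = 0.983), the integrin ITGAV (r = 0.977) and STARD4 (r = 0.974), and for CLDN12 FNDC3A (r = 0.986), APOOL (r = 0.978) and CAND1 (r = 0.975). Like CLDN1 and CLDN12, ITGAV and FNDC3A were lowest in combined replicate 3, at 8.93 and 5.37 FPKM. The likeness was weaker for CLDN2 (EIF3CL, r = 0.909), CLDN15 (MIA3, r = 0.910) and CLDN7 (POMP, r = 0.875). Among the claudins themselves, CLDN1 and CLDN12 were closest (r = 0.871), then CLDN3 and CLDN4 (r = 0.752). That order changed without combined replicate 3: CLDN3 and CLDN4 were closest (r = 0.963), and CLDN1 and CLDN12 fell to r = 0.433. For the nearest genes the values over these 11 libraries were 0.917 to 0.934 for CLDN1 and 0.855 to 0.925 for CLDN12, while those of CLDN4 were 0.995 to 0.996 and those of CLDN3 0.964 to 0.977. All these values rest on 4 groups and shared libraries and are descriptions.

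The other junction genes came from a list of proteins that claudins bind or share the strand with, of which 27 are reported here after the filter. With OTA 6 were called lower and 1 higher (12.9% and 4.82% of all tested genes), with a median log2 difference of -0.10 beside 0.03 over all genes. OCLN (occludin), a tetraspan strand protein, read 84.3, 77.7 and 88.3 FPKM in controls and 41.4, 47.3 and 36.8 with OTA (-0.98, limma adjusted p = 0.000438). TJP1 (ZO-1), the scaffold that holds claudin tails, read 42.4, 42.0 and 48.4 FPKM in controls, with 13.6 to 14.1 in OTA (-1.60, limma adjusted p = 0.000237). For both, control and OTA libraries were far apart. The other falls were AMOTL2 (-2.11), PARD6B, a polarity protein (-1.92), MARVELD3, a relative of occludin (-1.08), and TJAP1 (-0.65), whose call was lost without control replicate 2 or 3 or OTA replicate 2 (adjusted p up to 0.0935). PRKCZ, an atypical protein kinase C, was the 1 called higher (1.27, limma adjusted p = 0.0400), at means of 1.06 and 3.67 FPKM. Its call was lost in 8 of 19 other settings (adjusted p up to 0.135), among them a pseudocount of 0.1, no filter, and the fits without control replicate 1 or 3 or OTA replicate 2 or 3. MARVELD3 and PRKCZ were named after their values were seen. Without combined replicate 3 the counts were 9 lower and 2 higher, in a fit that called 19.2% of all genes lower and 14.7% higher.

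CW14 alone gave no call among these 27. In the combined group against OTA 3 were lower and 2 higher (8.22% and 7.79% of all tested genes). With only these 2 groups fitted none was called, in a fit that called 38 lower and 32 higher of all 12928 genes. Without combined replicate 3 the counts were 6 lower and 1 higher, where 11.8% and 9.36% of all genes were called. OCLN fell further, to 32.4, 30.8 and 24.6 FPKM (-0.50, limma adjusted p = 0.0312), though the call was lost with the GC trend removed (-0.24, adjusted p = 0.198), after quantile normalization (0.0603), with the 2 groups alone (0.153) and without OTA replicate 1 or 2 (up to 0.126). TJP1 read 18.1, 17.8 and 9.86 FPKM, close to OTA (0.08, limma adjusted p = 0.825). AMOTL2 and TJAP1 were the 2 called higher, at 0.85 and 0.58 (limma adjusted p = 0.0229 and 0.0397), and neither call held with the GC trend removed. That of TJAP1 was lost in 12 of 19 other settings, combined replicate 3 left out among them (adjusted p = 0.0564). PRKCI (-0.80) and VAPA (-0.47), the last named after its value was seen, were the other falls. The PRKCI call was lost with the 2 groups alone and without OTA replicate 2 (limma adjusted p up to 0.111). That of VAPA was lost in 5 of 19 other settings (limma adjusted p up to 0.691). They were the GC trend removed, the 2 groups alone and the fits without OTA replicate 1, 2 or 3. Against control 12 of the 27 were lower and 1 higher in the combined group, and against CW14 alone 13 and 1 (all genes: 16.8% and 12.0%, then 17.5% and 14.8%). These were 11 and 1, then 13 and 1, without combined replicate 3 (all genes in that fit: 19.1% and 13.6%, then 18.9% and 15.0%). Like CLDN4, then, OCLN, TJP1 and PARD6B were below control in both groups that received OTA.

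A second list held genes known to act on claudin transcription or turnover, and 23 of them are reported here after the filter. Like the first list, it was chosen with earlier results of these data known, so its counts are descriptions. With OTA 13 were called lower and none higher (12.9% and 4.82% of all tested genes), at a median log2 difference of -0.77 beside 0.03 over all genes. The counts were 16 and 1 without combined replicate 3 (19.2% and 14.7%). FOS and JUN, the partners of AP-1, read 358 to 486 and 399 to 472 FPKM in controls and 49.6 to 59.1 and 98.2 to 116 with OTA, and none of these libraries overlapped. Their log2 differences were -2.96 and -2.08 (limma adjusted p = 3.14e-06 and 3.87e-05). EGR1, an immediate early factor, and FOSL1, another AP-1 member, changed most, at -3.58 and -3.14 (limma adjusted p = 4.60e-07 and 5.17e-07). GATA6 (-1.60) and HNF4A (-0.43), factors of gut epithelial identity, were also called lower. So was SNAI1 (Snail), named after its value was seen, at -1.45 (limma adjusted p = 9.53e-05). The list was not sorted by whether a gene raises or lowers claudins. CDX2, the intestinal homeobox factor known to act on CLDN2, read 51.7 to 62.6 FPKM in controls and 45.2 to 59.7 with OTA (-0.09, limma adjusted p = 0.738). HNF4A lost its call after median centring (adjusted p = 0.0593) or quantile normalization (0.0904) and without any of 4 single libraries (control 1 or 3, OTA 1 or 2).

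FOS was the 1 gene of the list called with CW14 alone (0.364% of all tested genes were). It read 155, 128 and 87.8 FPKM (-1.81, limma adjusted p = 0.00602, or 0.0518 without control replicate 1). Without combined replicate 3, 2 of the list were called higher and 1 lower with CW14 alone (0.434% and 0.574% of all genes). In the combined group against OTA 3 of the 23 were higher and 5 lower (7.79% and 8.22% of all tested genes), or 4 and 5 without combined replicate 3 (9.36% and 11.8%). With only these 2 groups fitted none was higher and 1 lower, in a fit that called 32 higher and 38 lower of all 12928 genes. FOS and JUN were lower still, at 9.49 to 14.5 and 23.3 to 44.2 FPKM (-2.07 and -1.53, limma adjusted p = 0.00158 and 0.00265). The log2 difference of CLDN4 from OTA was -0.17 in the same libraries. Whether any of these factors acts on CLDN4 here was not tested. CDX2 (0.72), GATA6 (0.97) and HNF4A (0.48) were the 3 called higher. HNF4A read 145 to 163 FPKM there, beside 140 to 160 in controls, and CDX2 at 74.6 to 102 lay above every control. The call of GATA6 was lost when only the 2 groups were fitted (adjusted p = 0.0643), as were those of JUN (0.0562), CDX2 (0.0929) and HNF4A (0.106). The calls of CDX2 and HNF4A were also lost with the GC trend removed (adjusted p = 0.0607 and 0.0618), and that of HNF4A without OTA replicate 1 or 2 (up to 0.0632). Against control 15 were lower and 1 higher in the combined group, and against CW14 alone 15 and none (all genes: 16.8% and 12.0%, then 17.5% and 14.8%). These were 17 and 2, then 16 and none, without combined replicate 3 (all genes in that fit: 19.1% and 13.6%, then 18.9% and 15.0%). CLDN4 and CLDN3 were not among the genes called higher in the combined group against OTA, nor was any other claudin of the 7.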

How the data were processed

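RNA from 12 Caco-2 libraries, 3 in each of 4 groups, was sequenced as paired reads, per the labels' protocols. The authors deposited FPKM per gene and library. The submitters' processing notes name build hg19, Cufflinks 2.2.1 with Cuffnorm and Cuffdiff, TopHat2 2.0.13 and cutadapt 1.10. Which annotation was used, and how libraries were scaled to each other, is not given in the sources used here. Groups were taken from the sample titles. Absolute depth is unknown; relative depth was read from the step between low FPKM values (under 0.3) and is a description. An exact 0 can be a failed estimate.

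The analysis used log2(FPKM + 1) of the 12928 rows with a mean of at least 1 FPKM. Changes of low genes are understated on this scale. limma 3.58.1 (R 4.3.3) was fitted to all 12 libraries with a mean per group and a trended empirical Bayes step (8 residual degrees of freedom, two-sided). Benjamini-Hochberg adjustment ran over all tested rows, with calls made at adjusted p under 0.05. There were 6 comparisons, the last the difference of differences. The fit was tested on simulated data. Transcript GC content came from GENCODE transcripts on GRCh38, by symbol, for 97.1% of tested rows. The longest transcript of each symbol was used, a protein-coding one where there was one. For CLDN4 it has 4163 bases, more than the RefSeq gene spans (chromosome 7, 73830996 to 73832690). Deposited loci can span neighbouring genes, whether starts count from 0 or 1 is not stated, and closely related claudins can share reads.

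The members and gene lists were chosen with earlier results of these data known. Named were the 7 claudins, other claudins that passed the filter, the 3 largest called changes of each list in each comparison, OCLN, TJP1, CDX2 and HNF4A, and the 3 genes most like each claudin; other names are marked as chosen later. 3 genes of the lists are not reported here. Alternatives were a pseudocount of 0.1, no filter, median centring, quantile normalization, only the compared groups fitted, a replicate block and leaving out each library. Removal of a GC trend from each library, and correlations without combined replicate 3, were chosen after seeing the data.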

Additional observations from a re-analysis of the deposited data

Results flagged for a closer look

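No claudin of the 7 passed the test of the difference of differences, the effect of OTA in the presence of CW14 minus its effect alone. CLDN16, 1 of the 4 other tested claudins, did, with a log2 value of -1.56 (SE 0.37, limma adjusted p = 0.0469), since it was higher with OTA alone and low in the combined group. The call was kept without combined replicate 3 or 2, and lost under a pseudocount of 0.1, without a filter and without each of the other 10 libraries (adjusted p up to 0.121). Among the regulators JUN passed at -1.37 (limma adjusted p = 0.0367), and its call was lost without any control, CW14 or OTA library (adjusted p up to 0.108). Without combined replicate 3 the regulators and the 27 other junction genes each gave 1 higher and 2 lower. That fit called 6.02% of all genes higher and 6.25% lower.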

How the results depend on the processing

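The 7 claudins gave 42 log2 differences, and 791 values of them came from other settings: 719 kept direction and call, 27 lost a call, 19 gained one and 26 changed sign. Of the 7 calls among them, 3 held everywhere, all of CLDN4. Leaving out single libraries gave 1 to 4 claudins called in OTA against control, 0 to 3 in the combined group against OTA, 1 to 3 against control, 1 to 4 against CW14 and 0 to 1 in the difference of differences. Over all genes the ranges were 1299 to 4376, 4 to 130 (CW14 against control), 661 to 3377, 2260 to 4773, 2775 to 5291 and 17 to 1582. With only the compared groups fitted, 4 claudins and 4621 genes were called in OTA against control, 0 and 70 in the combined group against OTA, and 1 and 1521 against CW14; 1596 genes were called against control. Without a filter on low values 25 genes were called in CW14 against control and 235 in the difference of differences. Quantile normalization gave 0 claudins called in the combined group against OTA and 2 against control. Over all genes it called 2012 and 3976, beside 2070 and 3729 in the main fit. Removal of the GC trend gave 2 and 3 claudins, with 1748 and 3433 of 12558 genes. The cause of these changes was not tested. Absolute depth is unknown, so no counting error could be given for the low claudins.

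Sign changes concerned claudins that were not called. With the GC trend removed the combined group against OTA gave -0.011 for CLDN2, -0.16 for CLDN3 and -0.22 for CLDN23, the difference of differences -0.11 for CLDN3, and CW14 against control 0.016 for CLDN7. Quantile normalization gave 0.043 for CLDN4 in the combined group against OTA, 0.073 for CLDN7 in CW14 against control and 0.035 for CLDN7 in the combined group against control. Median centring gave 0.002 for CLDN7 in CW14 against control, -0.01 for CLDN23 in the combined group against OTA and 0.02 for CDX2 in OTA against control. Leaving out single libraries moved OTA against control from -0.11 to 0.20 for CLDN15 and from -0.17 to 0.031 for CDX2. In CW14 against control the ranges were -0.17 to 0.13 (CLDN2), -0.079 to 0.065 (CLDN7), -0.12 to 0.18 (CLDN15) and -0.11 to 0.11 (CLDN19). In the combined group against OTA they were -0.023 to 0.46 (CLDN3), -0.22 to 0.077 (CLDN7), -0.31 to 0.65 (CLDN23), -0.24 to 0.10 (CLDN9) and -0.064 to 0.35 (TJP1). Against control they were -0.18 to 0.12 (CLDN7) and -0.66 to 0.14 (CLDN12), and against CW14 -0.17 to 0.12 (CLDN7) and -0.78 to 0.022 (CLDN12). In the difference of differences they were -0.027 to 0.28 (CLDN2), -0.22 to 0.081 (CLDN7) and -0.66 to 0.29 (CLDN23).

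Median centring moved the median of all genes in OTA against control from 0.03 to 0.13, and CLDN4 and CLDN3 were still called, at -2.01 and -0.695. Of all calls there 27.2% were higher, 46.2% after median centring and 40.2% after quantile normalization. In the combined group against OTA 48.6% were higher, and 36.7% after median centring. In the difference of differences 55.5% were, 39.5% after median centring and 44.2% with the GC trend removed.

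Same-numbered libraries did not pair: 1 of 18 correlations of their deviations was over 0.1 (range -0.15 to 0.15). A replicate block gave 286 genes called in the difference of differences in place of 431. Under the block CLDN15 lost its call in the combined group against CW14 (adjusted p = 0.0638), and CLDN16 lost its calls in OTA against control (0.0543) and in the difference of differences (0.0682).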
